A study of Urosaurus graciosus
Urosaurus ornatus and Urosaurus graciosus and Urosaurus ornatus with 18 samples.

Results

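A group of 6 lysosomal genes was followed in lizard liver: TPP1, ABCB9, CTSD, CTSB, LAMP1 and LAMP2. They were picked by symbol from a table of 22773 genes, all 6 were present, and all 6 passed the low-count filter that left 15856 genes for testing. The set was chosen with heat results of these data already known, and the values that selected it, which are not stated, are taken to be the heat values of TPP1 and ABCB9, so the heat values of all 6 genes are given below as descriptions without a test. The question asked of them is whether TPP1 moved alone or with other lysosomal genes.

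Liver RNA came from 18 male lizards of the genus Urosaurus, each held for 48 h at 1 temperature. The hybrids (Hy) of the 2 species numbered 3 at 40 °C (animals I, K and X) and 3 at 36 °C (A, B and D). U. graciosus (Ug) numbered 3 at 40 °C (P, Q and T) and 3 at 36 °C (J, R and S), and U. ornatus (Uo) numbered 3 at 40 °C (L, N and O) and 3 at 36 °C (E, F and H). The title of the series names introgressed mitochondrial DNA in the hybrids and damage from reactive oxygen species; the cross or generation of the hybrids is not given in the sources used here. Each library is 1 animal's liver, and reads of every lineage were aligned to a Sceloporus undulatus genome, which is of a different genus.

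Lysosomes are acidic compartments in which proteases, glycosidases and lipases break down material taken up by the cell or delivered by autophagy. Their enzymes are made as inactive precursors, carried from the Golgi by mannose 6-phosphate receptors and activated at low pH, which a proton pump maintains. In mammals many of the genes share a regulator, the transcription factor TFEB. In liver, hepatocytes use lysosomes for autophagy, and the resident macrophages, rich in cathepsins, use them to degrade what they engulf.

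Library totals lay between 15780346 and 35002548 counts. Values are CPM, a gene's count as a share of the library total after TMM scaling, and differences are on the log2 scale from edgeR's quasi-likelihood fit to all 18 libraries. A gene is called at a Benjamini-Hochberg adjusted p under 0.05 over all genes. The hepatocyte markers identified the tissue as liver: 11 of 15 were measured, TF averaged 39475 CPM and APOB 21341 CPM, and their summed level ran from 27364 CPM in hybrid X to 148816 CPM. Hybrid X and U. ornatus O had the highest TMM factors, 1.43 and 1.35, and X, U. graciosus T and O had the highest summed levels of 7 heat shock genes, 3255, 17059 and 3551 CPM. In bulk liver, fewer cells of a type and less RNA per cell cannot be told apart.

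TPP1 encodes tripeptidyl peptidase 1, a lysosomal serine protease that removes tripeptides from the start of proteins; loss of it in humans causes a childhood neuronal ceroid lipofuscinosis. At 40 °C against 36 °C its level was higher in U. ornatus and lower in U. graciosus. In U. ornatus TPP1 stood at 21.6, 15.5 and 17.6 CPM at 40 °C, against 8.00, 6.73 and 7.01 CPM at 36 °C. In U. graciosus it stood at 14.8, 13.0 and 14.9 CPM at 40 °C, against 22.9, 20.3 and 20.7 CPM at 36 °C. The temperatures did not overlap in either species, and they lay in opposite orders. Hybrids had 24.4, 29.4 and 21.7 CPM at 40 °C, against 31.8, 25.0 and 32.9 CPM at 36 °C, which overlapped.

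**Figure D1:**
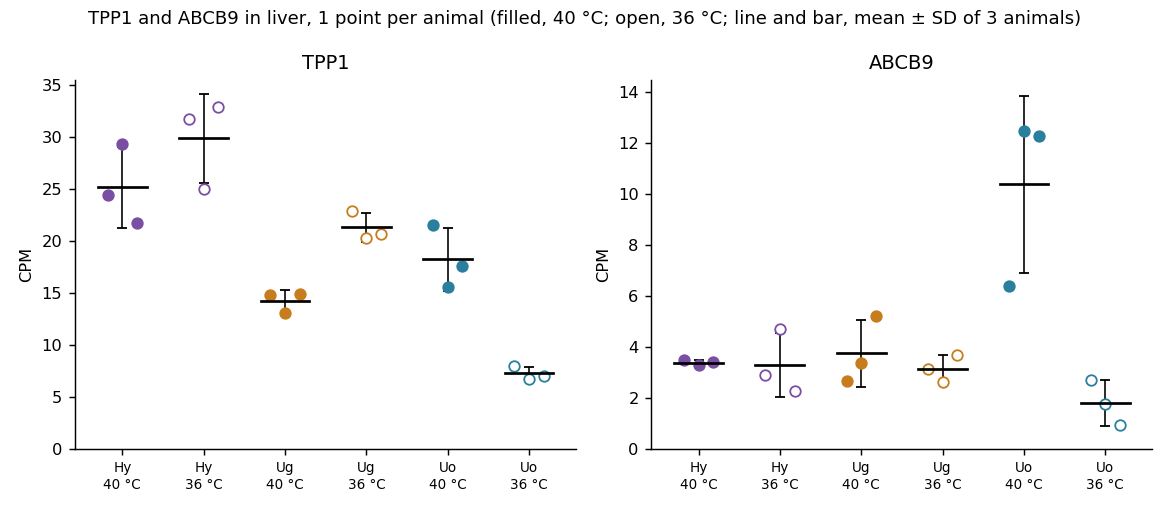
CPM of TPP1 and ABCB9 in each liver, by lineage and temperature, with 3 animals per group, filled points for 40 °C and open points for 36 °C; the line and bar are the mean and SD. TPP1 averaged 18.2 CPM at 40 °C and 7.25 CPM at 36 °C in U. ornatus, and 14.2 CPM at 40 °C and 21.3 CPM at 36 °C in U. graciosus, while ABCB9 averaged 10.4 CPM in U. ornatus at 40 °C and 1.79 to 3.74 CPM in the other 5 groups.

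On the log2 scale the heat value of TPP1 was 1.33 ± 0.18 in U. ornatus, -0.58 ± 0.18 in U. graciosus and -0.25 ± 0.18 in hybrids (SE, 3 animals against 3). The heat value in U. graciosus minus that in U. ornatus was -1.91 ± 0.25. TPP1 was the 1 gene of 15856 called for that difference, a background of 0.00631%, and nothing is read from it here because it is taken to have selected the gene. The other heat differences, hybrids minus U. graciosus and hybrids minus U. ornatus, called 0% and 0% of genes with edgeR, with 545 and 1529 genes at an unadjusted p under 0.05. The values of TPP1 there were 0.33 ± 0.25 and -1.58 ± 0.25.

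Ordered by mean, TPP1 ran from hybrids at 36 °C (29.9 ± 4.27 CPM) through hybrids at 40 °C (25.2 ± 3.87), U. graciosus at 36 °C (21.3 ± 1.41), U. ornatus at 40 °C (18.2 ± 3.08) and U. graciosus at 40 °C (14.2 ± 1.04) to U. ornatus at 36 °C (7.25 ± 0.669, SD, n = 3 each). Each of the first 3 groups overlapped the next. U. ornatus at 40 °C lay above U. graciosus at 40 °C in every animal, and that group lay above U. ornatus at 36 °C in every animal. How many of all genes showed such an order was not counted.

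The lineage difference averaged over both temperatures does not contain the heat values, which are taken to have selected the genes. Its tests use the same estimate of spread as the heat fits, so they are not fully independent of that selection. TPP1 was higher in hybrids than in either parent and higher in U. graciosus than in U. ornatus. Hybrids ranged from 21.7 to 32.9 CPM with a median of 27.2, U. graciosus from 13.0 to 22.9 with a median of 17.6, and U. ornatus from 6.73 to 21.6 with a median of 11.8 (6 animals each). Hybrids over U. graciosus gave 0.65 ± 0.13 (adjusted p = 0.0136), with 5 of 6 hybrids above all U. graciosus. Hybrids over U. ornatus gave 1.25 ± 0.13 (adjusted p = 6.72e-06), with 6 of 6 hybrids above all U. ornatus. U. graciosus over U. ornatus gave 0.60 ± 0.13 (adjusted p = 0.00235), with 1 of 6 above all U. ornatus.

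The parental average hides the temperature. U. graciosus over U. ornatus was -0.36 ± 0.18 at 40 °C and 1.56 ± 0.18 at 36 °C, so its sign turned. Hybrids over U. ornatus were at 0.47 ± 0.18 at 40 °C and 2.04 ± 0.18 at 36 °C, and hybrids over U. graciosus at 0.82 ± 0.18 and 0.49 ± 0.18. Those 6 single-temperature values contain the heat differences and are descriptions only. Every hybrid lay above every animal of each parent held at the same temperature. At 40 °C the margin was small, with hybrid X at 21.7 CPM and U. ornatus L at 21.6 CPM. The share of all genes with this order was not counted.

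Of the 6 genes, 1 was called higher in hybrids than in U. graciosus (TPP1), where 1.82% of all genes were called. Hybrids over U. ornatus called 2, both higher (TPP1 and LAMP2), where 35.2% of all genes were called, and U. graciosus over U. ornatus called 4, of which TPP1 and LAMP2 were higher and CTSD and CTSB lower, where 32.2% were called. A call against U. ornatus was thus common among all genes.

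**Figure D2:**
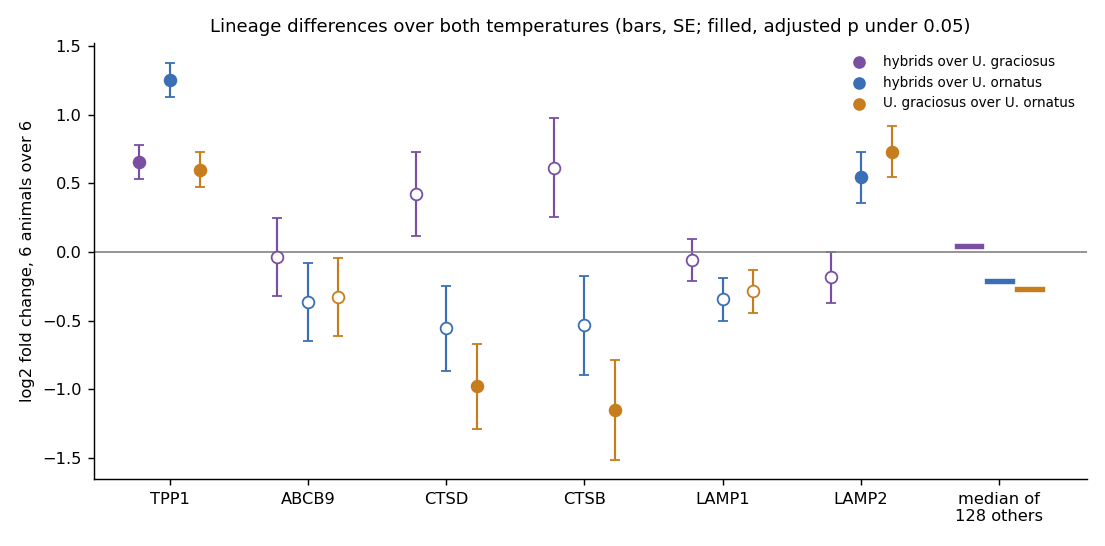
Lineage differences of the 6 genes on the log2 scale, averaged over both temperatures, 6 animals over 6, with SE bars; filled points passed an adjusted p of 0.05, and the thick marks on the right are medians of 128 other lysosomal genes. TPP1 is filled in all 3 comparisons, at 0.65, 1.25 and 0.60, and CTSD and CTSB are filled for U. graciosus over U. ornatus only, at -0.98 and -1.15.

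ABCB9 encodes a peptide transporter of the lysosomal membrane, an ATP-binding cassette protein related to the TAP transporters of antigen presentation. It was high in U. ornatus at 40 °C. There it stood at 6.37, 12.5 and 12.3 CPM (L, N and O), against 2.70, 1.75 and 0.930 CPM at 36 °C. All 12 hybrids and U. graciosus animals lay between 2.28 and 5.20 CPM, below each U. ornatus animal at 40 °C. Hybrids had 3.47, 3.29 and 3.39 CPM at 40 °C, against 2.88, 4.69 and 2.28 CPM at 36 °C, and U. graciosus had 2.64, 3.38 and 5.20 CPM at 40 °C, against 3.13, 2.62 and 3.67 CPM at 36 °C. Both of these pairs overlapped.

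The heat value of ABCB9 was 2.53 ± 0.42 in U. ornatus, 0.25 ± 0.40 in U. graciosus and 0.04 ± 0.40 in hybrids (SE), and 0.94 ± 0.23 averaged over lineages. Its level was low, with 119 to 802 counts summed over the 3 libraries of a group. No averaged lineage difference of ABCB9 passed: it was -0.04 ± 0.28 for hybrids over U. graciosus (adjusted p = 0.975), -0.37 ± 0.28 for hybrids over U. ornatus (0.335) and -0.33 ± 0.29 for U. graciosus over U. ornatus (0.398). In the same U. ornatus animals the summed level of macrophage markers was 1187, 1135 and 416 CPM in L, N and O at 40 °C, against 835, 528 and 526 CPM in E, F and H at 36 °C. The median sum was thus higher at 40 °C, as ABCB9 was, while O had 12.3 CPM of ABCB9 with the lowest sum of all 6. The part of macrophage content in the ABCB9 values was not tested.

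CTSD encodes cathepsin D, the main aspartic protease of lysosomes, and CTSB encodes cathepsin B, a cysteine protease. Averaged over temperatures, both were lower in U. graciosus than in U. ornatus. CTSD ranged from 146 to 294 CPM with a median of 187 in U. graciosus and from 274 to 742 with a median of 335 in U. ornatus. The difference was -0.98 ± 0.31 (adjusted p = 0.0245), with 5 of 6 U. graciosus below all U. ornatus. CTSB ranged from 481 to 859 CPM with a median of 644 in U. graciosus and from 760 to 2184 with a median of 1460 in U. ornatus. The difference was -1.15 ± 0.36 (adjusted p = 0.0243), with 4 of 6 below all U. ornatus.

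Both differences were larger in size at 40 °C than at 36 °C, as a description only, since single-temperature values contain the heat values. For U. graciosus over U. ornatus CTSD was at -1.69 ± 0.45 at 40 °C and -0.27 ± 0.43 at 36 °C. CTSB was at -1.69 ± 0.52 at 40 °C and -0.62 ± 0.51 at 36 °C. The difference between the temperatures was -1.42 ± 0.62 for CTSD and -1.07 ± 0.72 for CTSB (SE).

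The averaged calls rested on few animals. The CTSD difference missed the threshold without P (-0.96), J (-0.92), N (-0.77) or F (-0.92), and that of CTSB without J (-1.13), N (-1.01) or E (-1.05). The adjusted p over all 18 leave-outs ran from 0.00105 to 0.0752 for CTSD and from 0.00166 to 0.0619 for CTSB.

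Between hybrids and U. ornatus, hybrid X decided the result for both cathepsins. X had 688 CPM of CTSD and 2700 CPM of CTSB, while the other 5 hybrids had 166 to 213 and 540 to 880 CPM. With all animals CTSD was at -0.56 ± 0.31 (adjusted p = 0.173) and CTSB at -0.54 ± 0.36 (0.264), neither past the threshold. Without X they were at -1.02 and -1.08, with adjusted p of 0.00131 and 0.00413. For hybrids over U. graciosus, CTSD was at 0.42 ± 0.31 (0.543) and CTSB at 0.61 ± 0.36 (0.430); without X they were at -0.04 and 0.07.

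**Figure D3:**
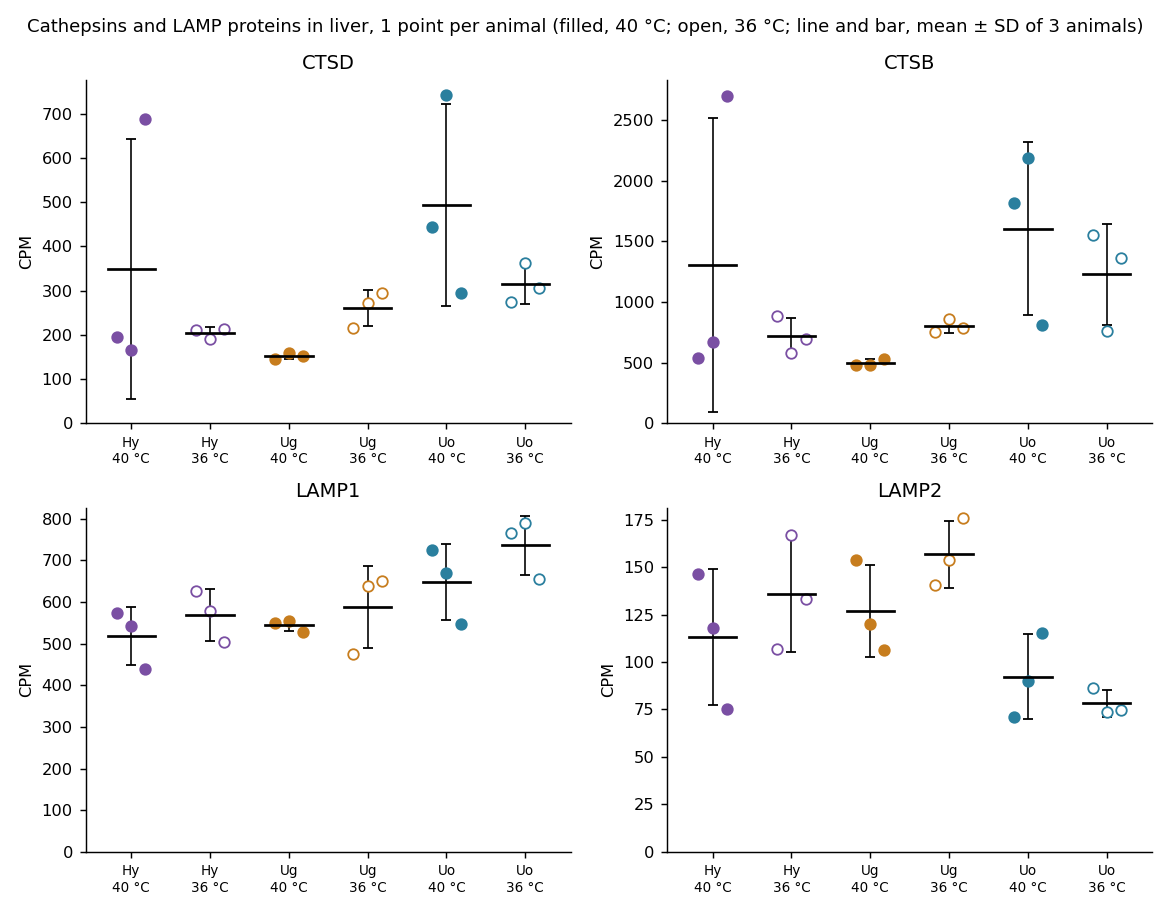
CPM of CTSD, CTSB, LAMP1 and LAMP2 in each liver, by lineage and temperature, with 3 animals per group, filled points for 40 °C and open points for 36 °C; the line and bar are the mean and SD. A single hybrid at 40 °C, X, stands at 688 CPM for CTSD and 2700 CPM for CTSB, and the 3 U. graciosus at 40 °C lie at 146 to 159 and 481 to 532 CPM, below all 3 at 36 °C.

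At 40 °C against 36 °C the cathepsins were lower in U. graciosus, without overlap. CTSD stood at 146, 159 and 153 CPM at 40 °C, against 215, 273 and 294 CPM at 36 °C, a heat value of -0.77 ± 0.44. CTSB stood at 482, 481 and 532 CPM at 40 °C, against 756, 859 and 785 CPM at 36 °C, a heat value of -0.68 ± 0.51. TPP1 and both cathepsins thus lay lower in all 3 U. graciosus at 40 °C, and the SE of the cathepsins was over 2 times that of TPP1.

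In U. ornatus the cathepsins overlapped between temperatures. CTSD stood at 444, 742 and 294 CPM at 40 °C (L, N and O), against 274, 363 and 307 CPM at 36 °C, a heat value of 0.65 ± 0.44. CTSB stood at 1818, 2184 and 810 CPM at 40 °C, against 1554, 760 and 1366 CPM at 36 °C, a heat value of 0.39 ± 0.51. L and N were high for both genes and O was not. In hybrids the heat values were 0.77 ± 0.44 for CTSD and 0.86 ± 0.51 for CTSB, and without X they were -0.18 and -0.24.

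Hybrids I, K and X had 195, 166 and 688 CPM of CTSD at 40 °C, against 211, 191 and 213 CPM in A, B and D at 36 °C. For CTSB they had 540, 674 and 2700 CPM at 40 °C, against 880, 577 and 693 CPM at 36 °C. Apart from X the hybrids of both temperatures lay close together for CTSD.

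Macrophage markers were high in the U. ornatus and hybrid livers with the most cathepsin, but they did not keep step with CTSD in every group. Of 13 markers on the list, 9 were measured, and none of the 9 was at 0 over the series. Their summed level was 374 to 787 CPM in hybrids at 40 °C and 320 to 621 at 36 °C, 269 to 357 in U. graciosus at 40 °C and 421 to 456 at 36 °C, and 416 to 1187 in U. ornatus at 40 °C and 526 to 835 at 36 °C. The U. ornatus pair with the highest CTSD and CTSB, L and N, had the highest sums of all animals, and X the highest sum of the hybrids. U. graciosus at 40 °C had the lowest median sum and the lowest mean CTSB of the 6 groups. Within that group P had the highest sum, 357 CPM, and the lowest CTSD, 146 CPM, though CTSD spanned only 146 to 159 CPM there. In U. ornatus at 36 °C, E had the highest sum, 835 CPM, and the lowest CTSD, 274 CPM, while F had 528 CPM and 363 CPM. For CTSB the same group differed: E was highest, at 1554 CPM, and F lowest, at 760 CPM. H, with the lowest sum, 526 CPM, had 1366 CPM of CTSB.

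Among the 9 markers, 7 were called lower in U. graciosus than in U. ornatus where 32.2% of all genes were called, and 1 lower in hybrids than in U. ornatus, where 35.2% were. VSIG4, a complement receptor of liver macrophages, was at -2.12 ± 0.40, the complement subunits C1QA and C1QB at -1.03 ± 0.26 and -1.22 ± 0.32, and CD68, itself a lysosomal membrane protein, at -0.87 ± 0.25 for U. graciosus over U. ornatus. Their adjusted p were 0.00104, 0.00648, 0.00870 and 0.0146. In U. graciosus TPP1 and the macrophage sum both lay lower at 40 °C without overlap, while among hybrids X had the highest sum and the lowest TPP1. Hybrids B, A and D at 36 °C had sums of 320, 532 and 621 CPM, with TPP1 at 25.0, 31.8 and 32.9 CPM. In U. ornatus, E at 36 °C and L at 40 °C had both the highest sum and the highest TPP1 of their groups. In U. graciosus the highest sum and the highest TPP1 fell on different animals at each temperature. The part of macrophage content in the cathepsin values and in those of TPP1 was not tested.

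Hybrid X differed in other marker sums too. Its hepatocyte sum was the lowest of all animals, its stellate cell and fibroblast sum was 3080 CPM while the other hybrids at 40 °C had 270 and 362 CPM, and its cholangiocyte sum was 1202 CPM, while theirs were at 40.0 and 50.4 CPM. SPP1 alone gave 1145 CPM of that sum, and SOX9, another marker of the list, was at 21.0 CPM in X and 30.7 CPM in U. graciosus T. U. ornatus O also had a high cholangiocyte sum, 440 CPM, while L and N had 69.0 and 64.6 CPM. TPP1 in X, at 21.7 CPM, was the lowest of the 6 hybrids and close to that of I, at 24.4 CPM.

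**Figure D4:**
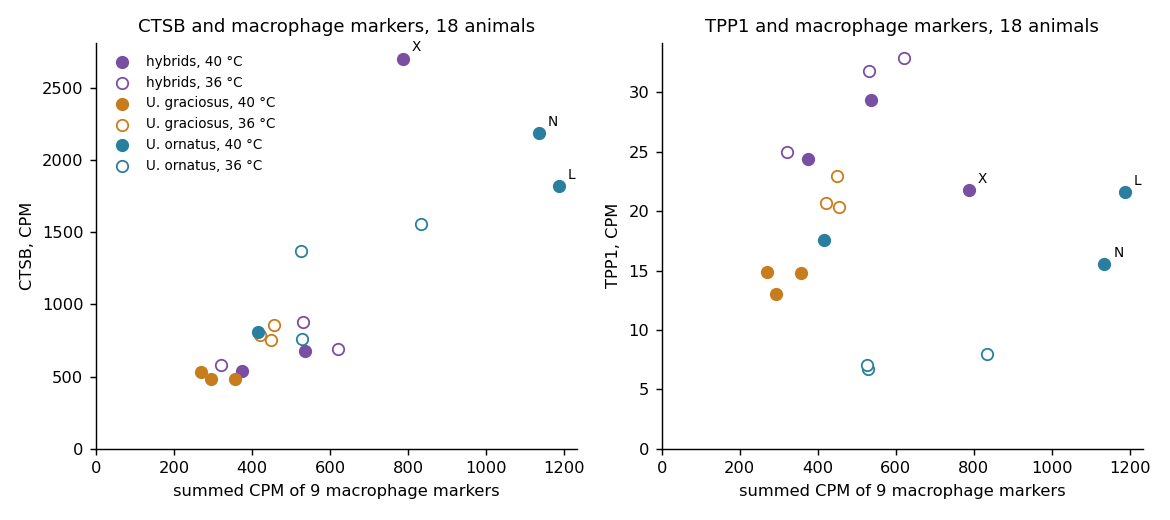
CPM of CTSB (left) and TPP1 (right) against the summed CPM of 9 macrophage markers, 1 point per liver, filled for 40 °C and open for 36 °C. X, N and L lie at 2700, 2184 and 1818 CPM of CTSB with sums of 787, 1135 and 1187 CPM. For TPP1 the same animals lie at 21.7, 15.5 and 21.6 CPM, inside the range of the other animals with all lineages pooled. Within U. ornatus at 40 °C, L has the highest TPP1 and N the lowest.

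LAMP1 and LAMP2 encode the most abundant glycoproteins of the lysosomal membrane; LAMP2 also serves chaperone-mediated autophagy and the fusion of autophagosomes. LAMP2 was higher in hybrids and in U. graciosus than in U. ornatus. It ranged from 75.3 to 167 CPM with a median of 126 in hybrids, from 107 to 176 with a median of 147 in U. graciosus and from 71.1 to 115 with a median of 80.6 in U. ornatus. Hybrids over U. ornatus gave 0.55 ± 0.18 (adjusted p = 0.0314), with 4 of 6 hybrids above all U. ornatus. U. graciosus over U. ornatus gave 0.73 ± 0.19 (adjusted p = 0.00743), with 5 of 6 above.

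The call of LAMP2 in hybrids over U. ornatus was lost without any 1 of 7 animals, I (0.43), K (0.53), B (0.46), L (0.47), N (0.54), F (0.52) or H (0.53). Hybrids over U. graciosus gave -0.19 ± 0.18 (adjusted p = 0.676).

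LAMP1 varied little. It ranged from 439 to 627 CPM in hybrids, 476 to 651 in U. graciosus and 548 to 789 in U. ornatus. No averaged lineage difference passed in edgeR: -0.06 ± 0.16 for hybrids over U. graciosus (adjusted p = 0.898), -0.35 ± 0.16 for hybrids over U. ornatus (0.0963) and -0.29 ± 0.16 for U. graciosus over U. ornatus (0.171). DESeq2 called both differences from U. ornatus, at -0.35 and -0.30, with adjusted p of 0.0134 and 0.0385.

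Neither LAMP gene separated the temperatures in any lineage. LAMP1 stood at 573, 543 and 439 CPM in hybrids at 40 °C, against 627, 579 and 503 CPM at 36 °C. In U. graciosus it stood at 549, 555 and 529 CPM at 40 °C, against 476, 638 and 651 CPM at 36 °C. In U. ornatus it stood at 726, 669 and 548 CPM at 40 °C, against 765, 789 and 657 CPM at 36 °C. The heat values of LAMP1 were -0.14 ± 0.22, -0.11 ± 0.22 and -0.19 ± 0.22 in hybrids, U. graciosus and U. ornatus.

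LAMP2 stood at 147, 118 and 75.3 CPM in hybrids at 40 °C, against 107, 167 and 133 CPM at 36 °C. In U. graciosus it stood at 154, 120 and 107 CPM at 40 °C, against 141, 154 and 176 CPM at 36 °C. In U. ornatus it stood at 71.1, 90.2 and 115 CPM at 40 °C, against 86.4, 73.4 and 74.7 CPM at 36 °C. The heat values of LAMP2 were -0.26 ± 0.26, -0.31 ± 0.26 and 0.24 ± 0.26, and all 3 pairs overlapped.

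**Figure D5:**
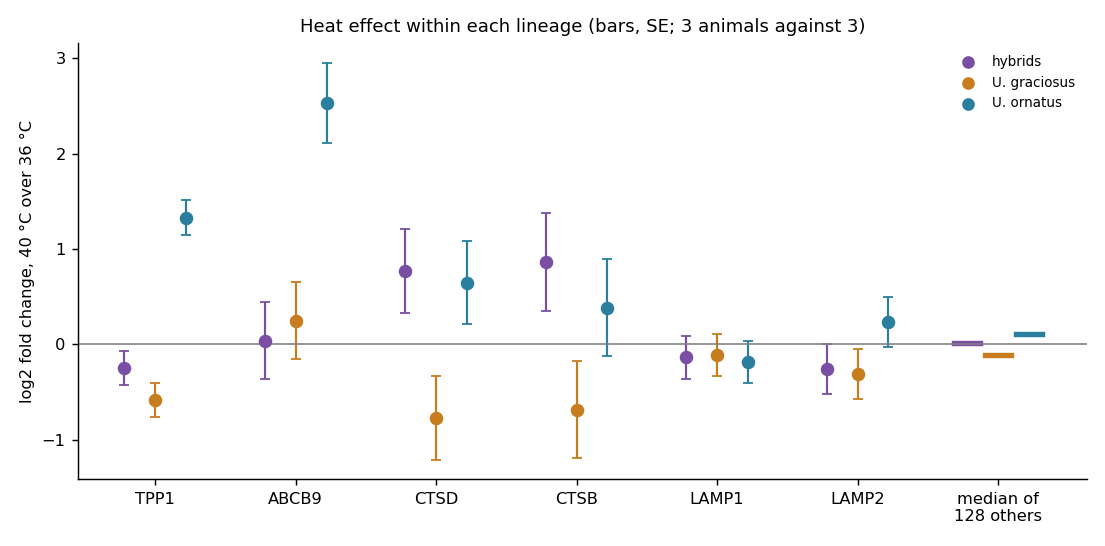
Heat values of the 6 genes on the log2 scale, 40 °C over 36 °C, in hybrids, U. graciosus and U. ornatus, 3 animals against 3, with SE bars; the thick marks on the right are medians of 128 other lysosomal genes. In U. ornatus TPP1 stands at 1.33 and ABCB9 at 2.53, while LAMP1 stands at -0.19 and LAMP2 at 0.24.

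Set side by side, the heat values differed between the genes. In U. ornatus TPP1 and ABCB9 lay higher at 40 °C in 3 of 3 animals, as 12.1% of all genes did, and the other 4 overlapped. In U. graciosus TPP1, CTSD and CTSB lay lower in 3 of 3, as 7.45% of all genes did, and the other 3 overlapped. In hybrids all 6 overlapped. TPP1 was the 1 member both higher in 3 of 3 U. ornatus and lower in 3 of 3 U. graciosus, a pattern that 66 of 15856 genes showed (0.416%); since TPP1 was chosen for its heat values, nothing is read from its share.

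Whether animals of 1 group with more TPP1 also had more of another member does not depend on the group means that selected the genes. Over 18 animals, each as a deviation from its group mean in log2 CPM, TPP1 and CTSD gave a Pearson r of -0.53 and a Spearman rho of -0.54 (exact permutation p within groups = 0.173 and 0.0682, two-sided). TPP1 gave an r of -0.32 with ABCB9, -0.14 with CTSB, 0.09 with LAMP1 and -0.11 with LAMP2, with rho of -0.29, -0.03, 0.12 and -0.08. The exact permutation p of r was 0.282, 0.714, 0.782 and 0.760, and the p of rho 0.341, 0.930, 0.697 and 0.808. Adjusted over the 5 relations, no p of r was under 0.704 and none of rho under 0.341. Without K and L, the 2 animals farthest from the median deviation of TPP1, r was -0.45 with CTSD, -0.10 with ABCB9, -0.12 with CTSB, -0.23 with LAMP1 and 0.05 with LAMP2. Without X it was -0.39 with CTSD, 0.30 with CTSB, -0.11 with LAMP1 and -0.49 with LAMP2, so the sign for CTSB and the LAMP genes depended on which animals entered. No member was shown to move with TPP1 among animals of a group. With 18 animals an r of -0.53 did not pass, so a relation of that size or weaker could have been missed.

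Among the other members the deviations of CTSD and CTSB gave an r of 0.82, CTSB and LAMP2 -0.71, and CTSD and LAMP2 -0.61 over the same 18 animals. These are descriptions; the animals share libraries in each pair, and X weighs on all of them.

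Against the mean log2 CPM of 128 other lysosomal genes in the same library, TPP1 in U. ornatus stood at -1.11 ± 0.27 at 40 °C, against -2.31 ± 0.08 at 36 °C (SD, n = 3). It stood at -1.06 ± 0.10 in U. graciosus at 40 °C and -0.62 ± 0.18 at 36 °C, and at -0.38 ± 0.30 in hybrids at 40 °C and -0.15 ± 0.21 at 36 °C. The mean of the 128 genes itself lay between 5.14 and 5.38 in U. ornatus at 40 °C and between 5.13 and 5.25 at 36 °C, and between 4.89 and 4.91 in U. graciosus at 40 °C and between 4.93 and 5.13 at 36 °C. These values describe a gene chosen for its heat values, and nothing is read from how its shift compares with that of a mean over many genes.

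Over all 18 animals, the genes whose log2 CPM was most like that of TPP1 were not lysosomal genes of the lists. The lists held only 128 of the 10540 genes compared, so their absence from a few top genes was likely in any case. Whether TPP1 moved alone is not read from it. Among 10540 named genes that averaged 1 CPM or more, the highest Pearson r were those of RPS26, a protein of the small ribosomal subunit (0.938), SLC6A4, the serotonin transporter (0.923), LRFN5, a neural adhesion protein (0.898), PRRC2A (0.888) and RC3H2, an RNA-binding ubiquitin ligase (0.882). The lowest were those of METTL18, a histidine methyltransferase (-0.900), PIGK, of the complex that attaches GPI anchors (-0.890), SUGT1, a cochaperone (-0.885), LIPT1, of lipoic acid transfer (-0.876), and PKNOX1, a homeobox factor (-0.857). The points share their group means, which hold the heat values taken to have selected TPP1. These r values and those of the other members below thus have no test.

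RPS26 averaged 280 CPM in U. ornatus at 40 °C and 201 CPM at 36 °C, and 278 CPM in U. graciosus at 40 °C and 356 CPM at 36 °C. SLC6A4 averaged 12.6 CPM in U. ornatus at 40 °C and 5.33 CPM at 36 °C, and 11.9 CPM in U. graciosus at 40 °C and 21.6 CPM at 36 °C. Their likeness in group order restates how they were chosen. METTL18 averaged 6.82 CPM in U. ornatus at 40 °C and 10.6 CPM at 36 °C, and 6.83 CPM in U. graciosus at 40 °C and 7.49 CPM at 36 °C.

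The other members ranked lower in likeness to TPP1: LAMP2 had an r of 0.514 (rank 1281 of 10540), ABCB9 0.318 (rank 2792), CTSB -0.167 (rank 6735), CTSD -0.178 (rank 6836) and LAMP1 -0.547 (rank 9661). The 128 other lysosomal genes had a median r of -0.11 with a range from -0.736 to 0.752, and all 10540 genes a median of 0.00786.

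The wider set of lysosomal genes was taken from 6 lists of proteases, other soluble enzymes, membrane proteins, the proton pump, sorting to the lysosome and gene control, 140 genes without the members, of which 128 were measured and tested. At 40 °C against 36 °C few were called. Averaged over lineages, 1 of 128 was called (0.781%), where 0.996% of all genes were called, and in U. ornatus 1 of 128 (0.781%), where 0.782% were called. It was the same gene, PLA2G15, a lysosomal phospholipase, higher at 40 °C by 0.55 ± 0.13 over lineages (adjusted p = 0.0493) and by 1.26 ± 0.22 in U. ornatus (0.0276). PLA2G15 averaged 230 ± 35.8 CPM in U. ornatus at 40 °C and 95.6 ± 8.67 CPM at 36 °C (SD, n = 3), and it was at 91.5 to 109 CPM on average in the other 4 groups.

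At an unadjusted p under 0.05 in the edgeR heat fit of U. ornatus were 4 of 11 proteases, 5 of 41 other soluble enzymes and 6 of 26 membrane proteins. So were 2 of 16 proton pump genes, 5 of 19 sorting genes and 2 of 15 control genes, against 2652 of all 15856 genes. In U. ornatus DESeq2 called 8 of the 128 and 846 of all genes, and voom called 3 and 262. The edgeR call of PLA2G15 there was lost without L, O, E, F or H and joined by 4 others without X. The call over lineages held without X and was lost without any other single animal, 17 in all.

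In hybrids and in U. graciosus the heat fits called 0% and 0% of all genes and 0 of the 128 with edgeR, and DESeq2 and voom called 0 of the 128 too. At an unadjusted p under 0.05, 4 of the 128 passed in hybrids and 5 in U. graciosus, against 1239 and 968 of all genes, of which DESeq2 called 47 and 37 and voom 0 and 1. The smallest p in hybrids were those of PIP4P1 (-0.87 ± 0.27), CTSL, cathepsin L (1.39 ± 0.58), and CD63 (0.92 ± 0.40), and in U. graciosus those of IDS (-0.95 ± 0.32), HEXA (-0.58 ± 0.21) and CLCN7 (-0.54 ± 0.23), with adjusted p of 0.561 or more.

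In U. ornatus 73 of 128 heat values lay above 0 (57.0%, against 52.1% of all genes) with a median of 0.11, and in U. graciosus 45 of 128 (35.2%, against 50.2%) with a median of -0.11, where the medians over all genes were near 0. The lists did not all share this: of 26 membrane proteins 7 lay above 0 in U. ornatus and 8 in U. graciosus, and of 15 control genes 13 and 9. Of 11 proteases, the list nearest to TPP1, 10 lay above 0 in U. ornatus and 2 in U. graciosus, none called with edgeR. The counts were 21 and 11 of 41 other soluble enzymes, 10 and 6 of 16 proton pump genes and 12 and 9 of 19 sorting genes. Without overlap between temperatures, 25 of 128 lay higher at 40 °C in U. ornatus (19.5%, against 12.1% of all genes) and 20 lay lower in U. graciosus (15.6%, against 7.45%). Both patterns together were shown by 2 of 128 (1.56%, against 0.416%), CLCN7, a chloride-proton exchanger of the lysosome, and SLC11A1, a metal transporter of phagocyte lysosomes.

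CLCN7 ranged from 18.4 to 33.2 CPM in U. ornatus at 40 °C and 16.1 to 16.9 at 36 °C, and from 9.73 to 14.2 CPM in U. graciosus at 40 °C and 15.1 to 21.6 at 36 °C. SLC11A1 ranged from 6.54 to 14.1 CPM in U. ornatus at 40 °C and 1.40 to 3.88 at 36 °C, and from 9.93 to 14.9 CPM in U. graciosus at 40 °C and 18.2 to 39.5 at 36 °C. Their heat differences, U. graciosus minus U. ornatus, were -1.29 ± 0.33 and -3.12 ± 0.81, with adjusted p of 0.409 and 0.424, so neither was called. None of the 128 was called with edgeR for the heat differences hybrids minus U. graciosus, hybrids minus U. ornatus and U. graciosus minus U. ornatus. Of all genes 0%, 0% and 0.00631% were called there. At an unadjusted p under 0.05 were 8, 13 and 11 of the 128, against 545, 1529 and 1183 of all 15856 genes.

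Between lineages, hybrids over U. ornatus called 59 of 128 (46.1%, against 35.2% of all genes), 24 higher and 35 lower, and U. graciosus over U. ornatus called 59 of 128 (46.1%, against 32.2%), 18 higher and 41 lower. The difference between the lists and all genes was not tested, here or for the single lists below. These 2 comparisons share the U. ornatus animals. Hybrids over U. graciosus called 2 of 128 (1.56%, against 1.82% of all genes): CTSF, cathepsin F, was higher by 0.84 ± 0.20 and GLA, alpha-galactosidase A, was at -0.79 ± 0.18, both with an adjusted p of 0.0422. CTSF lost its call without any of 12 animals (I, X, A, B, P, Q, T, J, R, S, L or N) and GLA without any of 14 (I, K, A, D, P, Q, T, R, S, L, N, E, F or H), while their values stayed between 0.79 and 0.90 and between -0.94 and -0.69 over all 18 leave-outs.

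Of 11 proteases tested, 5 were called lower and 1 higher in hybrids, and 8 lower and 1 higher in U. graciosus, each over U. ornatus, where 35.2% and 32.2% of all genes were called. CTSK, cathepsin K, an elastase and collagenase of osteoclasts and macrophages, was at -3.39 ± 0.33 in hybrids over U. ornatus and -2.84 ± 0.32 in U. graciosus over U. ornatus. CTSS, cathepsin S of antigen-presenting cells, was at -2.06 ± 0.29 and -2.16 ± 0.29. CTSA, which protects beta-galactosidase and neuraminidase, was at -0.52 ± 0.19 and -0.98 ± 0.19. Its call in hybrids (adjusted p = 0.0464) was lost in 13 of 18 leave-outs, holding only without X, A, T, O or F, with values from -0.75 to -0.40. DPP7 was higher in hybrids by 0.88 ± 0.22. TPP1 was called in the opposite direction from CTSK and CTSS in both comparisons. The adjusted p of CTSK were 4.19e-06 and 1.76e-05.

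Among the 41 other soluble enzymes and helpers, 16 were called lower and 8 higher in hybrids, and 14 lower and 6 higher in U. graciosus, each over U. ornatus. Of all genes 35.2% and 32.2% were called there. HEXA, a subunit of beta-hexosaminidase, averaged 8.92 CPM in hybrids, 9.10 CPM in U. graciosus and 43.2 CPM in U. ornatus at 40 °C. PPT1, another gene of the neuronal ceroid lipofuscinoses, was at -1.01 ± 0.16 in hybrids and -0.99 ± 0.16 in U. graciosus. PLBD2 was higher in both, by 1.89 ± 0.24 and 1.96 ± 0.24, and ARSA, arylsulfatase A, was higher in hybrids by 2.31 ± 0.34. ACP5, the tartrate-resistant phosphatase of macrophages and osteoclasts, was at -2.66 ± 0.38 in U. graciosus.

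Of 26 membrane proteins, 4 were higher and 7 lower in hybrids and 3 higher and 8 lower in U. graciosus over U. ornatus. SLC17A5, the sialic acid exporter, was higher by 1.73 ± 0.26 and 1.24 ± 0.26, and OSTM1, the partner of CLCN7, was at -1.93 ± 0.28 and -1.58 ± 0.28. Of 16 proton pump genes, 3 were higher and 1 lower in hybrids, and 5 were lower in U. graciosus. The shares of the proton pump genes were near or below the 35.2% and 32.2% of all genes called. Those of the membrane proteins and of the sorting genes were above. ATP6V1C1 was lower in both, at -1.09 ± 0.16 and -0.70 ± 0.16. Of 19 sorting genes, 5 were higher and 4 lower in hybrids and 6 higher and 5 lower in U. graciosus, with IGF2R, a mannose 6-phosphate receptor, at -0.78 ± 0.21 and -0.74 ± 0.21, and M6PR, the other one, at 0.28 ± 0.16 and 0.21 ± 0.16, not called.

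Of 15 control genes, 3 were higher and 2 lower in hybrids and 2 higher and 1 lower in U. graciosus over U. ornatus. Like those of the proton pump genes, these shares were near or below those of all genes, 35.2% and 32.2%. TFEB was higher in hybrids than in U. ornatus by 0.71 ± 0.18 (adjusted p = 0.00784) and was at 0.38 ± 0.18 in U. graciosus (0.124). It averaged 19.3 ± 4.09 CPM in hybrids and 13.3 ± 1.09 CPM in U. ornatus at 40 °C, and 22.1 ± 6.42 CPM in hybrids and 12.0 ± 2.88 CPM in U. ornatus at 36 °C (SD, n = 3). RRAGC, a nutrient-sensing GTPase, was higher by 1.47 ± 0.20 and 1.16 ± 0.20. Of the relatives of TFEB, TFE3 was at 0.10 ± 0.21 and 0.26 ± 0.21 and MITF at -0.43 ± 0.24 and -0.40 ± 0.24, neither called. TFEC, another relative, was called lower in both. Over all 18 leave-outs it ran from -1.37 to -1.01 in hybrids and from -1.59 to -1.28 in U. graciosus. It averaged 10.9 CPM in U. ornatus at 40 °C and 6.72 CPM at 36 °C, and 3.01 to 4.04 CPM in the hybrid and U. graciosus groups.

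CST3, cystatin C, the secreted inhibitor of cysteine cathepsins, was lower in both against U. ornatus, at -1.42 ± 0.32 in hybrids (adjusted p = 0.00306) and -1.44 ± 0.32 in U. graciosus (0.00311). It averaged 1234 ± 471 CPM in U. ornatus at 40 °C and 2683 ± 788 CPM at 36 °C. Among 6 relatives of ABCB9, 2 were higher and 1 lower in hybrids and 1 lower in U. graciosus over U. ornatus, where 35.2% and 32.2% of all genes were called. TAP2, a subunit of the peptide transporter of antigen presentation, was at -1.79 ± 0.40 in hybrids (adjusted p = 0.00330), ABCB1, the drug efflux pump, higher by 0.69 ± 0.24 (0.0331), ABCB6 higher by 0.78 ± 0.27 (0.0371), and ABCB8 at -0.76 ± 0.20 in U. graciosus (0.0103). The call of ABCB1 was lost without X, A, D, L, N, E or H (0.55 to 0.85 over all 18 leave-outs) and that of ABCB6 without I, K, B, N, O, E or H (0.59 to 0.97). In U. ornatus at 40 °C against 36 °C none of the 6 was called with edgeR, with 0 at an unadjusted p under 0.05, and TAP2 was at 1.11 ± 0.56.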

How the data were processed

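The deposited values are raw counts, 22773 genes by 18 libraries. Per the submitters' processing notes, reads were trimmed with Trim Galore 0.6.4, aligned with STAR, counted with Subread and tested with DESeq2; the series' design text names the Sceloporus undulatus genome. Per the labels, TRIzol extraction was followed by RNeasy columns and directional libraries. The build, annotation, strand setting and handling of multiply matching reads were not given in the sources used here, and differences in alignment between the lineages were not tested. Per library, 71.8% to 76.4% of counts between 1 and 20 were even, so a count may not equal 1 fragment, and a halved table was tried.

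Genes were filtered with filterByExpr, scaled by TMM and fitted by edgeR 4.0.16 (R 4.3.3, quasi-likelihood, robust, 1 mean per group). Log2 CPM used a prior count of 2. Alternatives were DESeq2 1.42.0, limma voom (3.58.1), other filters and factors, single temperatures and leave-outs. On simulated data, the heat fit in U. ornatus recovered 8% of 2-fold and 56% of 4-fold changes (3 false of 67 calls, 15582 genes), and U. graciosus over U. ornatus 43% and 84% (6 false of 133, 15592 genes).

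The members and gene lists were chosen with earlier results of these data known. Named genes were the 6 members, the 5 most and least like TPP1, up to 4 called genes per list and contrast by p (the 3 smallest p where none was called), and a fixed set of regulators, receptors and relatives; genes showing the no-overlap pattern and NAGLU were named after their values were seen. The labels mark replicates by letter; each letter is taken as 1 animal, and p-values measure only the spread between these samples. A gene of the fixed set is not reported here.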

Additional observations from a re-analysis of the deposited data

Results flagged for a closer look

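Of 18 sets of 6 animals (6 members in 3 lineages), 3 held an animal apart from the others by Dixon's criterion (critical value 0.625). For independent sets of normally spread values about 1 set in 20 would be flagged. That rate may not apply here, since each set pools both temperatures, CTSD and CTSB varied together, and X was flagged for both genes. Hybrid X had 688 CPM of CTSD, a gap of 0.911 of the range to the next hybrid, at 213 CPM. X also had 2700 CPM of CTSB, a gap of 0.842, with the next hybrid at 880 CPM. U. ornatus N had 742 CPM of CTSD, a gap of 0.637, with the next animal at 444 CPM.

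In 4 cases every animal of a lineage lay higher at 40 °C than at 36 °C and every animal of another lay lower. They were found among the members and the named lysosomal genes, and are not a full count over every pair of lineages. Some of those genes were named for a small p in a heat contrast, so the cases are not independent of the heat values. This pattern was not itself tested. Of all 15856 genes, 66 (0.416%) lay higher in U. ornatus and lower in U. graciosus without overlap. For hybrids and U. ornatus the share of all genes was not counted. The heat value of TPP1 in U. graciosus minus U. ornatus was -1.91, that of CLCN7 was -1.29 and that of SLC11A1 was -3.12. The heat value of NAGLU, alpha-N-acetylglucosaminidase, in hybrids minus U. ornatus was -1.25. In the fit across all genes, CLCN7, SLC11A1 and NAGLU did not pass (adjusted p = 0.409, 0.424 and 0.389), and TPP1 is taken to have been selected on its value.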

How the results depend on the processing

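No paired analysis was possible because each replicate letter belongs to 1 group and no animal was measured at both temperatures. The 3 lineage calls of TPP1 held with DESeq2, voom, RLE factors, other filters and halved counts. They held in all 18 leave-outs too (highest adjusted p 0.0477, 4.23e-05 and 0.00793). The single-temperature values of TPP1 contain its heat values and are descriptions only. At a single temperature TPP1 lost its call in hybrids over U. graciosus (0.82 at 40 °C, 0.49 at 36 °C) and in hybrids over U. ornatus at 40 °C (0.47). It turned its sign in U. graciosus over U. ornatus at 40 °C (-0.36). Over U. ornatus at 36 °C it was at 2.04 in hybrids and 1.56 in U. graciosus, and no support for the averaged calls is read from these values. Also at a single temperature, ABCB9 was at 0.067 at 36 °C in hybrids over U. graciosus, -1.61 at 40 °C and 0.88 at 36 °C in hybrids over U. ornatus, and -1.47 at 40 °C and 0.81 at 36 °C in U. graciosus over U. ornatus. CTSD and CTSB at 36 °C were at -0.35 and -0.16 in hybrids over U. graciosus and at -0.27 and -0.62 in U. graciosus over U. ornatus. LAMP2 at 40 °C was at 0.30 in hybrids over U. ornatus, 0.46 in U. graciosus over U. ornatus, and 0.55 in hybrids over U. ornatus with only the groups compared. A lineage value at a single temperature contains the difference of heat values between the lineages compared, and it rests on fewer animals. Other causes were not tested. Voom gave 0.049 for ABCB9 and -0.017 for CTSD in hybrids over U. graciosus, and -1.03 for CTSD and -0.99 for CTSB in hybrids over U. ornatus; without X, T and O these 4 were 0.11, -0.055, -1.16 and -1.25. DESeq2 gave -0.35 and -0.30 for LAMP1 in hybrids and U. graciosus over U. ornatus. Without X, T and O the within-group r of TPP1 was 0.34 with CTSB and -0.17 with LAMP1. Called genes among the 128 in the heat effect over lineages, 1 above, were 4 with DESeq2, 0 without a low-count filter, 2 with voom and 0 without X, T and O. Those settings called 850, 73, 534 and 55 of all genes. In U. ornatus, 1 above, they were 8 with DESeq2, 3 with voom, 3 without X, T and O and 0 with only the groups compared, against 846, 262, 87 and 0 of all genes. In hybrids over U. graciosus, 2 above, they were 6 with DESeq2, 7 with voom, 0 without X, T and O, 1 with only the groups compared and 0 at either temperature. Of all genes, 897, 1064, 251 and 174 were called there, and 20 at 40 °C and 13 at 36 °C. Hybrids over U. ornatus called 31 of the 128 at 36 °C, and U. graciosus over U. ornatus 37 at 40 °C and 24 at 36 °C, against 2925, 2528 and 2353 of all genes. Leaving out 1 animal at a time, the counts among the 128 ran from 0 to 1 over lineages, 0 to 5 in U. ornatus and 0 to 2 in hybrids over U. graciosus. The lineage values ran from -0.21 to 0.11 for ABCB9, -0.044 to 0.59 for CTSD and -0.12 to 0.0057 for LAMP1 in hybrids over U. graciosus, from -1.02 to -0.35 for CTSD, -1.08 to -0.35 for CTSB and 0.43 to 0.67 for LAMP2 in hybrids over U. ornatus, and from -1.11 to -0.77 for CTSD and -1.31 to -1.01 for CTSB in U. graciosus over U. ornatus. The r with TPP1 ran from -0.26 to 0.30 for CTSB, -0.11 to 0.26 for LAMP1 and -0.49 to 0.12 for LAMP2. Over all genes the heat calls ran from 6 to 131 over lineages and from 5 to 305 in U. ornatus. Of 61 called values of other genes chosen by the naming rule, 52 kept their call in all 18 leave-outs, 9 lost it in some, and 0 turned their sign in any alternative. ABCB9 had the fewest counts of the 6 genes, 119 to 802 summed over a group's 3 libraries.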
